A study of Mus musculus with 6 samples.

Results

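The G2 and mitosis genes described here are 36 protein-coding genes of the mouse, picked by symbol as mitotic kinases, cyclins, checkpoint and kinetochore genes, mitotic kinesins, spindle genes and cytokinesis genes. All 36 were found among the 24354 rows of the deposited table, and all 36 were among the 11385 genes whose mean reached 1 FPKM (fragments per kilobase of transcript, scaled by a library total) that entered the test. RNA was sequenced from basal epidermal cells of E18.5 mouse embryos that were sorted by their high surface level of α6 integrin, through which basal cells hold on to the basement membrane. The WT group had 3 libraries. The mutant group had 3 libraries homozygous for Pik3ca H1047R, an activating change in the catalytic subunit of phosphoinositide 3-kinase (PI3K), and both groups were labelled strain C57BL6. The labels name no Cre driver or transgene, and do not say whether each library of a group stands for its own animal, and a p-value here measures the spread between these libraries, which may be technical.

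Cells that have copied their DNA pass through G2 and enter mitosis when cyclin-dependent kinase 1, bound to cyclin A or B, is switched on by Cdc25 phosphatases, with Polo-like and Aurora kinases acting alongside. Kinesin motors and their partners then build the spindle, the checkpoint holds the anaphase-promoting complex (APC/C) until every kinetochore is attached, and a contractile ring cuts the daughters apart. Most of these genes are transcribed periodically, through promoter elements called CHR that recruit the MuvB complex with B-Myb and FoxM1, and through CCAAT boxes bound by NF-Y. In the epidermis, division is largely kept to the basal layer, and the mRNAs of these genes are commonly used as markers of cycling basal keratinocytes.

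Mutant libraries held more mRNA of 18 of the 36 genes, less of 1 (Anln), and 17 did not pass the test (limma on log2(FPKM + 1), Benjamini-Hochberg adjusted p under 0.05 over all genes tested). Of all genes tested, 23.2% were higher, 22.8% lower and 46% changed in either direction. The higher members included the kinase gene Plk1, the cyclin genes Ccnb1 and Ccna2, the checkpoint kinase genes Bub1 and Bub1b, the kinetochore genes Cenpf and Cenpe, and 5 of 7 kinesin genes. The differences were small: the ratio of mean FPKM lay between 1.17 and 1.60 over the 18 higher members, 10 of them were under 1.3, and only Plk1 and Cenpf reached 1.5. The median log2 difference, mutant minus WT, was 0.22 over the members and 0.01 over all genes tested. It was above 0 for 33 members and below 0 for Cdk1, Anln and Ect2, whereas 51.4% of all genes tested were above 0. Single libraries bore on the counts: 11 members were higher without mutant replicate 2, against 16.9% of all genes tested, and 3 were lower without mutant replicate 3, against 22.9%.

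Counted by library rather than by model, all 3 mutant values lay above all 3 WT values for 21 members, as they did for 29.1% of genes tested. They lay below for Anln alone, as for 26.9% of genes tested, and the groups overlapped for 14 members. Mean levels ran from 8.15 FPKM for Cenpf to 124 FPKM for Ube2c, with a median of 29.0 FPKM against 12.2 FPKM over all genes tested. The summed level of the 36 genes was 1202, 1270 and 1190 FPKM over the WT samples and 1289, 1358 and 1503 FPKM over the mutant samples. Every mutant sum was above every WT sum, with mutant replicate 3 the highest. In bulk RNA such a difference cannot tell a larger share of cells in G2 or mitosis from more of these mRNAs in each such cell.

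**Figure D1:**
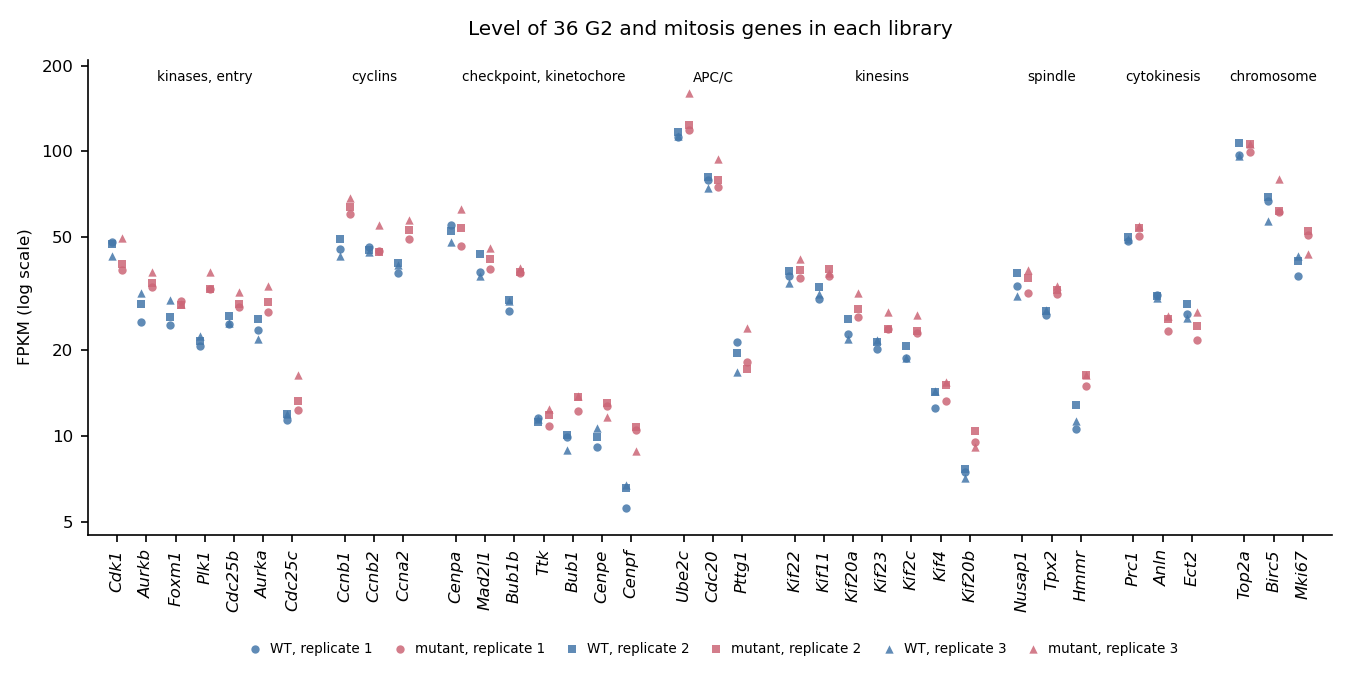
Level of each G2 and mitosis gene in each library, in FPKM on a log axis, with WT libraries in blue and mutant libraries in red and the replicate number given by the marker shape. Genes are grouped by role, and Ube2c and Top2a are the highest and Cenpf and Kif20b the lowest in level.

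The size of the difference and the number of members past the threshold depend on how libraries are scaled to each other. The deposited values summed to between 656761 and 767148 FPKM across WT and between 538627 and 651769 FPKM across mutant libraries, and the members held 0.160%, 0.166% and 0.181% of those totals in WT against 0.238%, 0.252% and 0.231% in mutant libraries. With each library scaled to the same total FPKM, 34 members were higher and 0 lower, against 47.2% and 7.4% of all genes tested. That scaling moved the median of all genes to 0.30 on the log2 scale and that of the members to 0.54, so the members' median stood 0.24 above that of all genes, against 0.21 as deposited. Over the 21 alternatives, that distance ranged from 0.139, without mutant replicate 3, to 0.242. Estimated depth relative to WT replicate 1 was 0.981 to 1.15 in WT and 1.11 to 1.24 in mutant libraries, and between 11242 and 11351 genes per library reached 1 FPKM. Xist, an RNA of the inactive X chromosome, was at 30.5, 24.2 and 0.530 FPKM across WT and 0.733, 0.0542 and 71.1 FPKM across mutant libraries, so neither group was uniform in it.

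The sorted cells carried the keratins of the basal layer in both groups, with Krt5 between 11361 and 13033 FPKM and Krt14 between 7792 and 10682 FPKM over the 6 libraries. Markers of the layers above, where cells normally no longer divide, were also present and moved with genotype: the summed level of 8 suprabasal genes was 3861 to 4663 FPKM across WT and 11751 to 14347 FPKM across mutant libraries, and 4 of the 8 were higher and 1 lower. Most of that sum was Krt1 and Krt10, whose means went from 1489 to 5730 FPKM and from 1704 to 5899 FPKM. Krtdap, the third in level, did not pass (log2 difference 0.14, limma adjusted p = 0.306). The 9 basal markers summed to 26097 to 26446 FPKM across WT and 23846 to 27260 FPKM across mutant libraries, with 1 higher and 5 lower. Of 8 hair follicle markers, 4 were higher and 2 lower, and their sum was 1981 to 2403 FPKM across WT and 1398 to 1639 FPKM across mutant libraries. Summed levels of 6 erythroid markers (222 to 288 FPKM in WT, 82.8 to 148 FPKM in mutant) and of 8 fibroblast markers (397 to 547 FPKM, 319 to 360 FPKM) were under those of WT in every mutant library. Sums of 7 immune markers (8.41 to 10.4 FPKM, 6.85 to 7.42 FPKM), 6 melanocyte markers (15.7 to 21.5 FPKM, 11.1 to 15.1 FPKM) and 6 skeletal muscle markers (14.2 to 25.1 FPKM, 9.78 to 11.01 FPKM) were likewise under WT in every mutant library, with 2 genes of each list lower and 0 higher. Ptprc, Cd3e, Cd207 and Csf1r, 4 of the 7 immune markers, were under 1 FPKM in every library. The 5 endothelial markers summed to 2.60 FPKM or less, and 5 Merkel cell markers to 2.36 to 2.74 FPKM in WT and 3.24 to 13.3 FPKM in mutant libraries, with 1 higher. Of the Merkel cell markers, Atoh1, Krt20 and Isl1 were under 1 FPKM in every library. The sum thus rested on Krt8, at 6.05, 2.29 and 1.68 FPKM in mutant replicates 1, 2 and 3, and Krt18, at 6.61, 0.547 and 1.14 FPKM. Whether these differences in markers reflect cell content, and what part they have in the levels of the mitotic genes, was not tested. Pik3ca mRNA was at 9.04 ± 0.415 FPKM in WT samples against 6.65 ± 0.602 FPKM in mutant samples (SD, n = 3 each), and fell by 0.39 on the log2 scale (limma adjusted p = 0.00433).

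Promoters of these genes share letters that the choice of members did not use. RefSeq windows of GRCm38.p6, from 250 bases before to 50 bases after the annotated start, were matched by symbol for 30 of the 36 members, and were not used for Tpx2, Aurkb, Ccna2, Cdc25c, Foxm1 and Kif20a. On either strand, the CHR core TTTGAA occurred in 22 of the 30 (73.3%), against 17.9% of all 32851 windows and 11.9% of the 11046 windows of genes tested. The variant TTCGAA, which reads the same on both strands, occurred in 4 of the 30, against 1.56% of all windows. CCAAT occurred in 23 of the 30 (76.7%) against 37.4% of all windows, and 2 or more copies occurred in 16 against 11.7%. None of the E2F motifs GGCGGGAA, TTTGGCGC and TTTCCCGC, which mark many S phase promoters, was found in any of the 30 windows. At least 1 of them is held by 3.21% of all windows and 6.11% of the windows of genes tested. With shares that low, the lack of a match in 30 windows says little. A CHR core starting within 50 bases of the annotated start, a distance chosen after the positions were seen, was present in 22 of the 30 (73.3%) against 5.31% of all windows. Among higher members and the others the shares were alike in size, though the difference was not tested: TTTGAA was in 10 of 14 higher members with a window and in 12 of the other 16, and CCAAT in 12 of 14 and 11 of 16. A match of these letters is a description of the sequence and not evidence of a bound site.

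Stretches from 100 bases before to 30 bases after the start are shown for 5 members that were higher in mutant libraries, to let the CCAAT boxes and the CHR core be seen in place. Each is written 5′ to 3′ on the strand of its gene, from RefSeq GRCm38.p6, with capitals marking CCAAT boxes, which read ATTGG where they lie on the other strand. Capitals also mark the CHR core TTTGAA, which reads backwards as TTCAAA on the other strand, and its variant TTCGAA. They lie at chr1:189688057-189688186 (Cenpf, minus strand), chr11:40733408-40733537 (Hmmr, minus strand), chr19:37376282-37376411 (Kif11, plus strand), chr2:127831830-127831959 (Bub1, minus strand) and chr13:100786457-100786586 (Ccnb1, minus strand).
Cenpf: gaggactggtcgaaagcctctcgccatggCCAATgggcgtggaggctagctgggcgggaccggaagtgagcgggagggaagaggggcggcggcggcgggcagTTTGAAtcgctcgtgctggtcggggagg
Hmmr: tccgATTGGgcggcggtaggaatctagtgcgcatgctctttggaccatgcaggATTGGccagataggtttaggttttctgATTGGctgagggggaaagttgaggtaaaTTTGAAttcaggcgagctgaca
Kif11: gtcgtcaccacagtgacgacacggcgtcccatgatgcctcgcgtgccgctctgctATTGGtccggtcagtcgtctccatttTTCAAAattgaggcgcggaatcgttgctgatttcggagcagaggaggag
Bub1: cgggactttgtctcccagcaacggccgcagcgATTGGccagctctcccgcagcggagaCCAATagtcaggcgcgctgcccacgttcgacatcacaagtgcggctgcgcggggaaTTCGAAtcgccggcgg
Ccnb1: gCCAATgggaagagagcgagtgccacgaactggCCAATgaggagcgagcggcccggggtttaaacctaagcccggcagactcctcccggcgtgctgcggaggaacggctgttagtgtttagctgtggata
Cenpf has its CHR core from base 3 to base 8 after the start, and Hmmr, whose stretch holds 3 CCAAT boxes, has it from base 9 to base 14. In Kif11 the CHR core lies before the start, 26 bases downstream of its CCAAT box, and Bub1 carries the variant TTCGAA. The Ccnb1 window shows a pair of CCAAT boxes and no match to either CHR core.

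The next 4 stretches are from members that did not pass the test (Cdc20, Ccnb2 and Cdk1) and from Anln, the member that was lower, and are shown because 3 of them hold the same arrangement. They lie at chr4:118437314-118437443 (Cdc20), chr9:70421525-70421654 (Ccnb2), chr10:69352883-69353012 (Cdk1) and chr9:22389177-22389306 (Anln), all on the minus strand, with the same use of capitals.
Cdc20: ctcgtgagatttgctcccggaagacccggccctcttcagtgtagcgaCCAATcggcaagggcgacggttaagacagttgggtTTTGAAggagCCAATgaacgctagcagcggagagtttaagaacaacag
Ccnb2: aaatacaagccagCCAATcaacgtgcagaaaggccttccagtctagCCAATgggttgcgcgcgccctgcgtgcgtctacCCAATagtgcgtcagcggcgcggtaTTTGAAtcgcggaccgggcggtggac
Cdk1: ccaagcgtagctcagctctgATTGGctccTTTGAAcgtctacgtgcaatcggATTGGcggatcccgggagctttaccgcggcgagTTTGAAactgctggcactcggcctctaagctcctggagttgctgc
Anln: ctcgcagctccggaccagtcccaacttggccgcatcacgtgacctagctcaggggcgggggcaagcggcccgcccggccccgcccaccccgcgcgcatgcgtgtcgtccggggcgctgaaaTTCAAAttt
Ccnb2 shows 3 CCAAT boxes, and its last box and its CHR core are 25 bases apart, while Cdk1 shows 2 CCAAT boxes and 2 CHR cores and Cdc20 shows 2 boxes around 1 core. Anln shows a CHR core after the start and no CCAAT box, and Kif20b and Kif2c, both higher in mutant libraries, also had no CCAAT box in the window. In the 20 members with a CCAAT box upstream of a CHR core near the start, the spacing had a median of 35 bases and a range of 9 to 153, and 13 of the 20 lay between 25 and 50 bases.

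Among 7 mitotic kinases and regulators of entry, 4 rose in mutant libraries and 3 did not pass, with a median log2 difference of 0.22. Plk1, the Polo-like kinase that drives entry and centrosome maturation (chromosome 7, 122159437 to 122169875, plus strand), was at 20.7, 21.5 and 22.4 FPKM over the WT samples and 32.9, 32.8 and 37.7 FPKM over the mutant samples. The groups were well apart, and the mutant libraries were all high. Its mean rose from 21.5 ± 0.870 to 34.5 ± 2.79 FPKM (SD, n = 3 each), a ratio of 1.60 and a log2 difference of 0.65 (SE 0.0711, limma adjusted p = 0.000284). Plk1 had the largest log2 difference of the 36 members, above 96.3% of all genes tested. Aurka, the Aurora kinase of the spindle poles, was at 23.6, 25.7 and 21.8 FPKM across WT and 27.3, 29.5 and 33.6 FPKM across mutant libraries, and rose by 0.33 in log2 (SE 0.0899, limma adjusted p = 0.0182). Aurkb, the Aurora kinase of the chromosomal passenger complex, was at 25.1, 29.1 and 31.9 FPKM across WT and 33.2, 34.3 and 37.6 FPKM across mutant libraries. The groups of both Aurora genes stood apart, for Aurkb by little, and Aurkb rose by 0.28 (SE 0.0926, limma adjusted p = 0.0370).

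Cdc25b, a phosphatase that activates Cdk1 at entry, was at 24.7, 26.5 and 25.02 FPKM across WT and 28.4, 29.0 and 31.9 FPKM across mutant libraries. The groups did not overlap, and the log2 difference was 0.22 (SE 0.0645, limma adjusted p = 0.0254). The table's locus for Cdc25b (chromosome 2, 131127412 to 131604824) spans neighbouring genes, and its deposited interval had a halfwidth of 92.7% of the value, against a median of 32.5% over the members. Cdc25c, its relative with a similar role, was at 11.4, 11.9 and 11.9 FPKM across WT and 12.3, 13.3 and 16.3 FPKM across mutant libraries, and did not pass (log2 difference 0.22, limma adjusted p = 0.0911). Its groups were apart, with mutant replicate 3 well above the other libraries. Foxm1, the transcription factor of the late cell cycle, was at 24.5, 26.2 and 29.9 FPKM across WT and 29.7, 28.7 and 29.1 FPKM across mutant libraries. WT replicate 3 was as high as the mutant libraries, the groups overlapped, and the log2 difference was 0.12 (limma adjusted p = 0.240).

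Cdk1, the kinase at the centre of mitotic entry, was at 48.1, 47.2 and 42.9 FPKM across WT and 38.2, 40.03 and 49.6 FPKM across mutant libraries. Mutant replicates 1 and 2 were the lowest of the 6 and mutant replicate 3 the highest, so the groups overlapped (log2 difference -0.12, SE 0.101, limma adjusted p = 0.368). Some of these calls changed when a library was left out. Any such omission also lowered the count over all genes tested, from 2642 higher to between 1922 and 2597. Without mutant replicate 3 the log2 difference of Cdk1 was -0.23 (limma adjusted p = 0.0333), while scaling to the same total turned it to 0.21 (adjusted p = 0.0452). With that scaling the median of all genes tested was 0.30. Aurkb lost its call without WT replicate 1, WT replicate 2, mutant replicate 2 or mutant replicate 3 (limma adjusted p = 0.101, 0.0754, 0.0823 and 0.0939 in that order). Its log2 differences there were 0.19, 0.30, 0.30 and 0.23, against 0.28 with all libraries. Cdc25b lost its call without WT replicate 1, WT replicate 3, mutant replicate 2 or mutant replicate 3 (limma adjusted p = 0.0785, 0.0551, 0.0579 and 0.0536). Its log2 differences there were 0.20, 0.21, 0.24 and 0.17, against 0.22 with all libraries. Conversely, Cdc25c passed as higher without mutant replicate 1 (limma adjusted p = 0.0423) and Foxm1 without WT replicate 3 (0.0381).

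**Figure D2:**
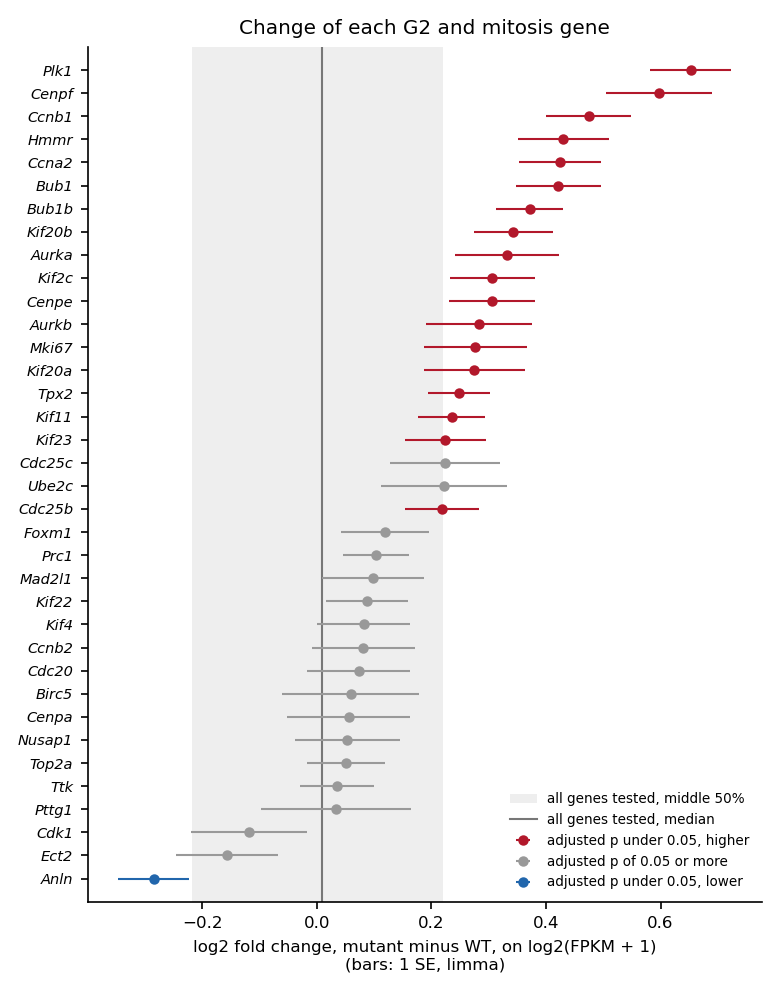
Log2 difference of each G2 and mitosis gene, mutant minus WT, on log2(FPKM + 1), with bars of 1 SE from limma and colours for the call. The grey band is the middle 50% of all genes tested (-0.22 to 0.22), and 19 of the 36 members lie to its right.

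Of 3 cyclin genes, 2 rose and Ccnb2 did not pass, with a median log2 difference of 0.42. Ccnb1, the cyclin B that brings Cdk1 into the nucleus at entry (chromosome 13, 100778739 to 100786486, minus strand), was at 45.5, 49.1 and 43.0 FPKM across WT and 60.1, 63.9 and 68.3 FPKM across mutant libraries. Its groups were far apart, and its mean rose from 45.9 ± 3.06 to 64.1 ± 4.09 FPKM (SD, n = 3 each), a ratio of 1.40 (log2 difference 0.47, SE 0.0734, limma adjusted p = 0.00154). Ccna2, the cyclin A of S phase and G2, was at 37.5, 40.5 and 39.99 FPKM across WT and 49.2, 53.1 and 57.4 FPKM across mutant libraries, a ratio of 1.35 (log2 difference 0.42, SE 0.0711, limma adjusted p = 0.00221). All its mutant values were above all WT values. Ccnb2, the second B-type cyclin, was at 45.9, 45.1 and 44.3 FPKM across WT and 44.5, 44.3 and 55.3 FPKM across mutant libraries. Mutant replicates 1 and 2 lay within the WT range and mutant replicate 3 above it, and the difference did not pass (0.08, SE 0.0892, limma adjusted p = 0.483). Without mutant replicate 3 the log2 difference of Ccnb2 was -0.022. Reads of Ccnb1 may be shared with 2 processed pseudogenes, Ccnb1-ps (99.2% identity over 1287 bases) and Gm12856, so its level is uncertain.

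A ratio within a library does not depend on how libraries are scaled, and 7 ratios of related members were compared. Ccnb1 over Ccnb2 was 0.991, 1.09 and 0.971 in WT and 1.35, 1.44 and 1.23 in mutant libraries. The WT libraries held the pair at about equal FPKM, and every mutant library held more Ccnb1 than Ccnb2 (exact two-sided permutation p = 0.1, the smallest that 3 against 3 allows, and 0.175 adjusted over the 7 ratios). Each cyclin stood higher relative to Cdk1 in every mutant library than in any WT library: the mean ratio went from 0.996 ± 0.0475 to 1.52 ± 0.121 for Ccnb1, from 0.857 ± 0.0768 to 1.26 ± 0.0886 for Ccna2 and from 0.981 ± 0.0445 to 1.13 ± 0.0324 for Ccnb2 (SD, n = 3 each, with the same exact permutation p = 0.1 and adjusted p = 0.175 for each). These 3 ratios share the values of Cdk1, whose own log2 difference was below 0, so they are not separate results. Ratios of other relatives overlapped between groups. Aurka over Aurkb was 0.836 ± 0.134 in WT and 0.859 ± 0.0348 in mutant libraries (SD, n = 3, exact permutation p = 0.9). Bub1 over Bub1b was 0.332 ± 0.0317 and 0.349 ± 0.0200 (SD, n = 3, exact permutation p = 0.6), and Kif20a over Kif20b was 3.16 ± 0.175 and 2.98 ± 0.446 (SD, n = 3, exact permutation p = 0.5).

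Of 7 checkpoint and kinetochore genes, 4 rose and 3 did not pass, with a median log2 difference of 0.31. Cenpf, a very large protein of the nuclear matrix and outer kinetochore (chromosome 1, 189640614 to 189688086, minus strand), was at 5.60, 6.54 and 6.71 FPKM across WT and 10.5, 10.7 and 8.87 FPKM across mutant libraries. The groups were apart, with mutant replicate 3 the lowest of the mutant libraries. Its mean rose from 6.28 ± 0.598 to 10.02 ± 1.002 FPKM (SD, n = 3 each), a ratio of 1.60 (log2 difference 0.60, SE 0.0926, limma adjusted p = 0.00156). Cenpe, the kinesin that carries chromosomes to the spindle equator, was at 9.12, 9.95 and 10.6 FPKM across WT and 12.7, 13.1 and 11.6 FPKM across mutant libraries, and rose by 0.31 (limma adjusted p = 0.0118), a call that was lost without mutant replicate 2 (adjusted p = 0.0509). Cenpe and Cenpf were both apart between groups and both lowest, among mutant libraries, in replicate 3.

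Bub1, the kinase that gathers checkpoint proteins at kinetochores, was at 9.93, 10.1 and 8.89 FPKM across WT and 12.2, 13.7 and 13.8 FPKM across mutant libraries, a ratio of 1.37 (log2 difference 0.42, SE 0.0742, limma adjusted p = 0.00278). Bub1b, which encodes the checkpoint component BubR1, was at 27.5, 30.1 and 29.8 FPKM across WT and 37.4, 37.5 and 38.9 FPKM across mutant libraries, a ratio of 1.303 (log2 difference 0.37, SE 0.0583, limma adjusted p = 0.00164). Both were high in all mutant libraries. Other checkpoint members did not pass. Mad2l1, which with BubR1 forms the inhibitor of the APC/C, was at 37.8, 43.6 and 36.3 FPKM across WT and 38.5, 41.9 and 45.7 FPKM across mutant libraries (log2 difference 0.10, limma adjusted p = 0.399). Ttk, the kinase at the top of the checkpoint, was at 11.5, 11.2 and 11.4 FPKM across WT and 10.9, 11.9 and 12.4 FPKM across mutant libraries (0.04, limma adjusted p = 0.678). Cenpa, the histone H3 variant of centromeres, was at 55.0, 52.4 and 48.1 FPKM across WT and 46.5, 53.6 and 62.6 FPKM across mutant libraries (0.06, limma adjusted p = 0.695). The groups of all 3 overlapped, and without mutant replicate 3 the difference was -0.051 for Cenpa and -0.0033 for Ttk.

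None of the 3 APC/C and securin genes passed the test, and their median log2 difference was 0.07. Ube2c, the ubiquitin-conjugating enzyme of the APC/C and the member with the highest level, was at 112, 116 and 113 FPKM across WT and 119, 124 and 160 FPKM across mutant libraries. The groups did not overlap, but mutant replicate 3 stood far above the rest (log2 difference 0.22, SE 0.110, limma adjusted p = 0.133). Cdc20, the activator that the checkpoint holds back, was at 79.5, 81.0 and 74.3 FPKM across WT and 75.04, 79.2 and 93.9 FPKM across mutant libraries (0.07, limma adjusted p = 0.529). Pttg1, the securin that guards sister cohesion, was at 21.3, 19.5 and 16.8 FPKM across WT and 18.2, 17.2 and 24.0 FPKM across mutant libraries (0.03, limma adjusted p = 0.854). For Cdc20 and Pttg1 the groups overlapped and mutant replicate 3 was the highest of the 6, and without it the differences were -0.020 and -0.11. Pttg1 also went to -0.05 without WT replicate 3.

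Of 7 kinesin genes, 5 rose and 2 did not pass, with a median log2 difference of 0.24. Kif20b, a motor of late mitosis, was at 7.46, 7.65 and 7.12 FPKM across WT and 9.49, 10.4 and 9.11 FPKM across mutant libraries, a ratio of 1.31 (log2 difference 0.34, SE 0.0688, limma adjusted p = 0.00496). Kif2c, which dismantles microtubules at centromeres, was at 18.7, 20.7 and 18.8 FPKM across WT and 23.0, 23.3 and 26.5 FPKM across mutant libraries, a ratio of 1.25 (log2 difference 0.31, SE 0.0741, limma adjusted p = 0.0113). Both were apart between groups. Kif11, the motor that pushes the spindle poles apart, was at 30.3, 33.3 and 31.4 FPKM across WT and 36.6, 38.5 and 37.3 FPKM across mutant libraries, and rose by 0.24 (SE 0.0586, limma adjusted p = 0.0128). Kif23, the motor of centralspindlin at the spindle midzone, was at 20.2, 21.4 and 21.7 FPKM across WT and 23.7, 23.7 and 27.1 FPKM across mutant libraries, and rose by 0.22 (limma adjusted p = 0.0318). The groups of both were apart, Kif11 with little spread among the mutant libraries. Kif20a, a motor that brings the passenger complex to the midzone, was at 22.7, 25.8 and 22.0 FPKM across WT and 26.2, 28.0 and 31.8 FPKM across mutant libraries, and rose by 0.28 (SE 0.0887, limma adjusted p = 0.0356).

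The chromokinesins Kif4 and Kif22, which bind chromosome arms, gave overlapping groups. Kif4 was at 12.5, 14.3 and 14.3 FPKM across WT and 13.2, 15.1 and 15.4 FPKM across mutant libraries (log2 difference 0.08, limma adjusted p = 0.436). Kif22 was at 36.3, 37.8 and 34.4 FPKM across WT and 35.8, 38.2 and 41.7 FPKM across mutant libraries (0.09, limma adjusted p = 0.345). The calls of Kif20a and Kif23 were each lost when any of several libraries was left out. Calls over all genes tested fell too, from 23.2% higher to 16.9% without mutant replicate 2. Kif20a lost its call without WT replicate 1, WT replicate 3, mutant replicate 2 or mutant replicate 3 (limma adjusted p = 0.0979, 0.0892, 0.0783 and 0.0833), and Kif23 without WT replicate 1, WT replicate 2, mutant replicate 2 or mutant replicate 3 (0.0998, 0.0719, 0.0529 and 0.0648). In the same order, the log2 differences were 0.25, 0.23, 0.29 and 0.20 for Kif20a, against 0.28 with all libraries. For Kif23 they were 0.19, 0.24, 0.25 and 0.16, against 0.22. Kif11 lost its call without mutant replicate 2 (limma adjusted p = 0.0560). The locus of Kif20a covers exons of Cdc23, an APC/C subunit that was itself higher (limma adjusted p = 0.00791), and the handling of reads in the overlap was not given in the sources used here.

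Spindle assembly genes comprised 3 members, of which 2 rose. Hmmr, a microtubule-associated protein of the spindle poles, was at 10.6, 12.9 and 11.2 FPKM across WT and 14.9, 16.4 and 16.4 FPKM across mutant libraries, a ratio of 1.38 (log2 difference 0.43, SE 0.0802, limma adjusted p = 0.00355). Tpx2, the activator of Aurka on spindle microtubules, was at 26.6, 27.5 and 27.6 FPKM across WT and 31.4, 32.7 and 33.5 FPKM across mutant libraries, a ratio of 1.19 (log2 difference 0.25, SE 0.0541, limma adjusted p = 0.00726). Both stood apart, Tpx2 with a narrow spread within each group. Nusap1, which links microtubules to chromatin, was at 33.7, 37.3 and 30.9 FPKM across WT and 31.7, 35.98 and 38.3 FPKM across mutant libraries (0.05, limma adjusted p = 0.660). Its groups overlapped, and the log2 difference was -0.01 without WT replicate 3 and -0.0055 without mutant replicate 3.

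Of 3 cytokinesis genes, Anln fell and 2 did not pass, with a median log2 difference of -0.16. Anln, the anillin scaffold of the contractile ring, was at 31.2, 31.0 and 30.4 FPKM across WT and 23.4, 25.8 and 26.3 FPKM across mutant libraries. All mutant values lay below all WT values, and the mean fell from 30.9 ± 0.404 to 25.2 ± 1.54 FPKM (SD, n = 3 each; log2 difference -0.28, SE 0.0614, limma adjusted p = 0.00682). With libraries scaled to the same total FPKM, however, Anln was at 0.04 (limma adjusted p = 0.770), so that its direction depends on the scaling. That scaling moved the median of all genes tested from 0.01 to 0.30, and Anln lay below that median under both. The locus of Anln in the table (chromosome 9, 22055460 to 22389206) also reaches over neighbouring genes, and its interval halfwidth was 48.9%. Ect2, the exchange factor that activates RhoA at the ring, was at 26.8, 29.2 and 25.9 FPKM across WT and 21.7, 24.4 and 27.2 FPKM across mutant libraries. The groups overlapped through mutant replicate 3, and the difference did not pass (-0.16, limma adjusted p = 0.184). Without that library it passed as lower (-0.23, limma adjusted p = 0.0490), and with the same total FPKM it turned to 0.16 (adjusted p = 0.151). Prc1, which bundles the midzone microtubules, was at 48.3, 50.2 and 49.1 FPKM across WT and 50.4, 53.9 and 54.6 FPKM across mutant libraries, apart but not past the threshold (0.10, limma adjusted p = 0.173).

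Among genes of mitotic chromosomes and the passenger complex, 1 of 3 rose. Mki67, the surface coat of mitotic chromosomes known as Ki-67, was at 36.5, 41.1 and 42.9 FPKM across WT and 50.7, 52.5 and 43.5 FPKM across mutant libraries. Mutant replicate 3 lay just above the highest WT library, and the log2 difference of 0.28 passed narrowly (SE 0.0903, limma adjusted p = 0.0370). Without WT replicate 1, WT replicate 2, mutant replicate 1 or mutant replicate 2, Mki67 did not pass (limma adjusted p = 0.118, 0.0726, 0.101 and 0.129). Top2a, the topoisomerase that untangles sister chromatids, was at 96.9, 107.2 and 96.4 FPKM across WT and 99.2, 106.2 and 105.7 FPKM across mutant libraries (0.05, limma adjusted p = 0.564). Birc5, which encodes the passenger subunit survivin, was at 67.0, 69.2 and 56.9 FPKM across WT and 61.0, 61.4 and 79.8 FPKM across mutant libraries (0.06, limma adjusted p = 0.707). The groups of both overlapped, and Birc5 went to -0.07 without mutant replicate 3 and -0.03 without WT replicate 3.

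The 6 members with the largest log2 differences were Plk1, Cenpf, Ccnb1, Hmmr, Ccna2 and Bub1, between 0.42 and 0.65. Except for the ratios given above, differences between members were not tested. Plk1, Ccnb1, Ccna2, Cenpf, Bub1, Bub1b, Hmmr, Tpx2, Kif2c and Kif20b were higher as reported and under all 21 alternatives. Ccnb2, Cenpa, Mad2l1, Ttk, Kif4, Kif22, Nusap1 and Pttg1 passed under none of them other than the 2 scalings to a common total.

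**Figure D3:**
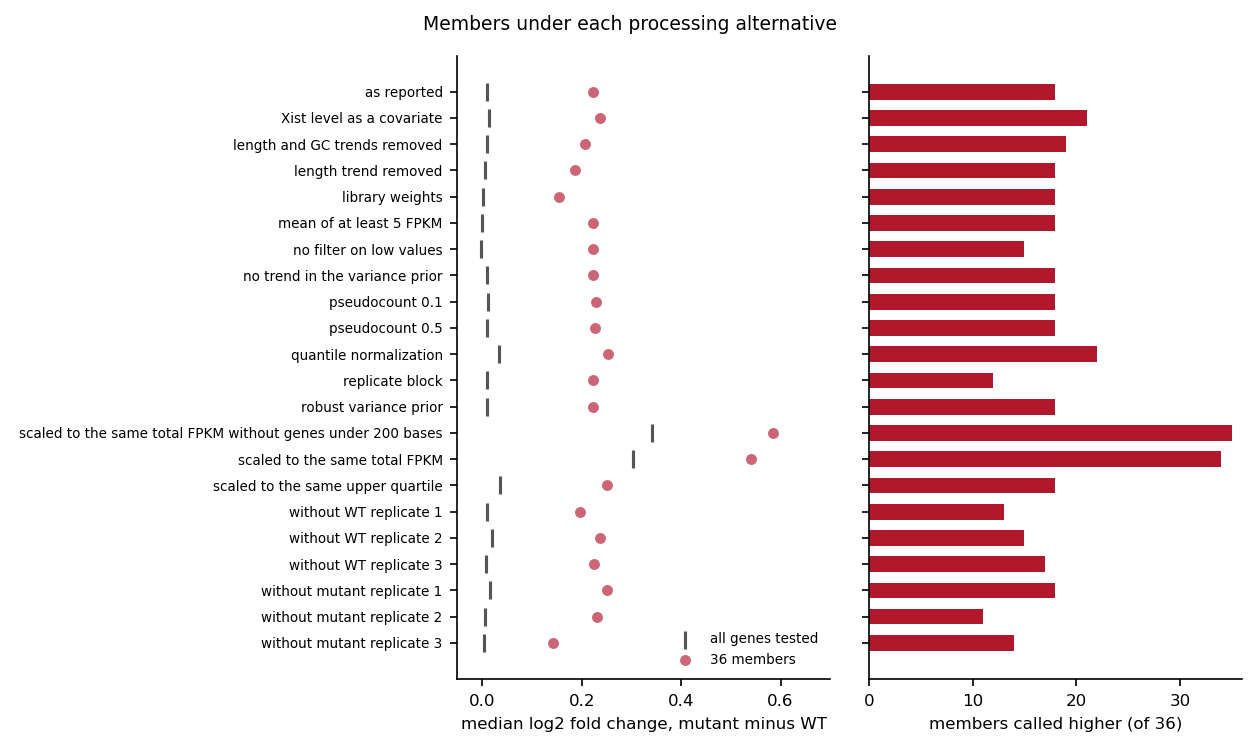
Left, the median log2 difference of the 36 members (points) and of all genes tested (bars) as reported and under 21 alternatives of processing; right, the number of members higher in mutant libraries. The members' point lies to the right of the bar of all genes in every row, and the count runs from 11 without mutant replicate 2 to 35 with scaling to a common total.

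Among mutant libraries, replicate 3 gave the highest value for 28 of the 36 members, replicate 2 for 7 and replicate 1 for Foxm1 alone, whereas replicate 3 was the highest for 42.8% of all genes tested. The longest annotated protein-coding transcript (GENCODE M21) had a median of 2996 bases for those 28 and 5564 bases for the 7. Over the 36 members, whose transcripts run from 1466 to 11130 bases, the deviation from the group mean had a Spearman rho with transcript length of 0.495, 0.691 and -0.705 in mutant replicates 1, 2 and 3, and of -0.483, 0.183 and 0.301 in WT replicates 1, 2 and 3. These points share their libraries, and 10978 genes with a length gave values of the same sign for 5 of the 6 libraries, among them -0.566 for mutant replicate 3. Short members such as Ccnb2, Cenpa, Pttg1 and Cdc20 were high in mutant replicate 3. The 3 longest members, Cenpf, Mki67 and Cenpe, were lowest there among mutant libraries. Mad2l1, the next in annotated length at 7557 bases, was highest there, but its locus in the table (chromosome 6, 66535468 to 66540991) is shorter than that transcript. The length of Mad2l1, and so its place in this order and in the rho values, is uncertain. The log2 difference between groups itself had a rho of 0.0878 with length over the members.

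**Figure D4:**
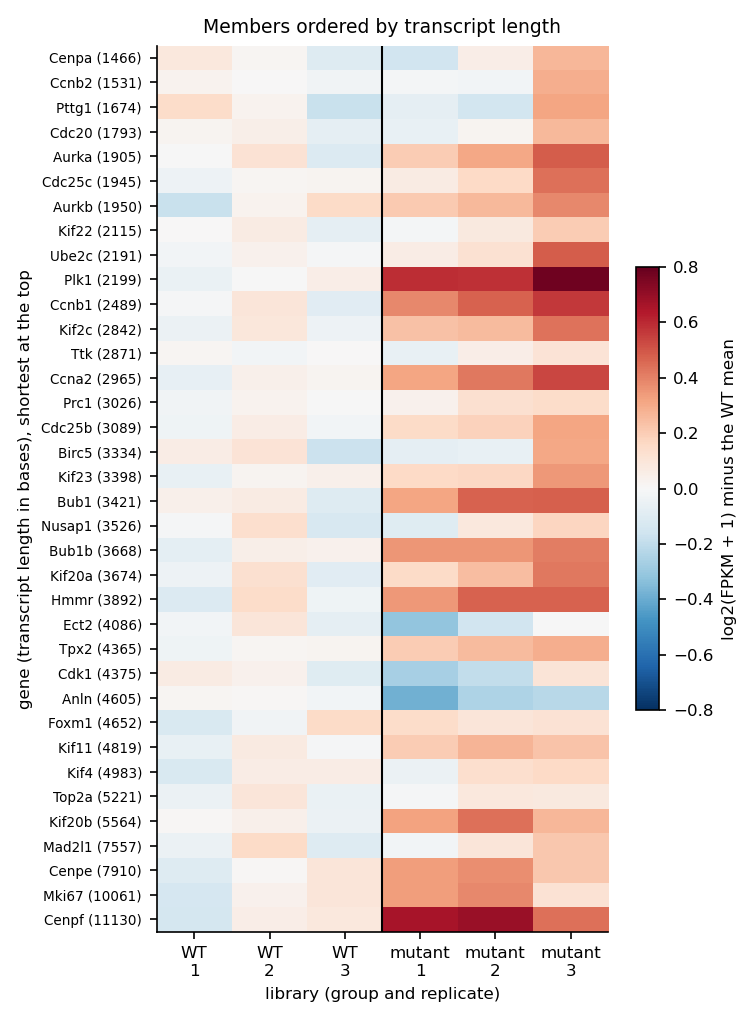
Each library's log2(FPKM + 1) minus the WT mean for the 36 genes, ordered by transcript length from the shortest at the top, red for higher and blue for lower. In the column of mutant replicate 3 the red is deeper in the upper rows of short genes, and Cenpf, in the bottom row, is paler there than in mutant replicates 1 and 2.

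With mutant replicate 3 left out, 14 members were higher and 3 lower (Cdk1, Anln and Ect2), against 21.9% of genes tested that were higher, and the members' median was 0.14. Removing a smooth trend in transcript length from each library, an alternative added after the data were seen, left 18 members higher, against 25.8% of genes tested: Kif20a lost its call and Cdc25c gained one.

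Exons of 11 members are overlapped by a gene on the other strand, and 4 of the 11 were among the higher members: Plk1, Ccna2, Cdc25b and Kif20a. Use of the strand in counting was not given in the sources used here. If it was not used, reads of the overlapped bases could not be assigned to 1 gene of a pair. Ccna2 shares 431 bases with Exosc9, an exosome subunit gene that was also higher (limma adjusted p = 0.00820). In other pairs the neighbours differed: Elovl1 beside Cdc20, Rccd1 beside Prc1 and Tnnc2 beside Ube2c were lower in mutant libraries. Foxm1 and Top2a are also overlapped on their own strand, and Mki67 has a near-identical pseudogene, Gm44521, over 216 bases.

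Further lists of mitosis genes, fixed by name, held 160 other genes, with a median log2 difference of 0.04. Of the 160, 39 (24.4%) were higher and 25 (15.6%) lower, against 23.2% and 22.8% of all genes tested, so the higher share was near that of all genes. The counts of 39 and 25 fell to 20 and 15 without mutant replicate 2 and to 24 and 16 without WT replicate 1. The lower count was also 15 without WT replicate 2 or mutant replicate 1. Over all genes tested, 2642 higher and 2592 lower fell to 1922 and 1957 without mutant replicate 2. Without WT replicate 1 they fell to 2068 and 2039. With each library scaled to the same total FPKM, 97 of the 160 were higher and 3 lower, against 47.2% and 7.4% of all genes tested. Most of the lower calls below therefore do not hold on that scale. The list closest to the members in outcome was that of spindle, centrosome and kinesin genes, with 15 of 40 higher, 4 lower and a median of 0.13. Its 4 genes with the highest level were the tubulin-binding protein gene Stmn1, Ran, Kpna2 and Gpsm2. Kpna2, an importin that holds Tpx2 until the GTPase Ran releases it, was at 52.3, 54.0 and 49.3 FPKM across WT and 103, 101 and 117 FPKM across mutant libraries, and rose by 1.03 (SE 0.0760, limma adjusted p = 4.17e-05). That difference exceeded those of all 36 members. Gpsm2, the LGN protein of spindle orientation, was at 54.5, 53.7 and 56.6 FPKM across WT and 44.7, 45.8 and 48.8 FPKM across mutant libraries, and fell by 0.24 (limma adjusted p = 0.0123). Stmn1 and Ran did not pass, with log2 differences of -0.19 and -0.10.

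Of 19 further genes of the passenger complex and cytokinesis, 6 (31.6%) were higher and 3 (15.8%) lower, against 23.2% and 22.8% of all genes tested. The 6 higher genes were Incenp, Racgap1, Sept9, Sept11, Cdca2 and Arhgap11a, also named after their values were seen. The 3 lower genes, named after their values were seen, were Rhoa, the GTPase that Ect2 activates, at 228 ± 16.6 FPKM across WT and 183 ± 14.5 FPKM across mutant libraries (SD, n = 3), its effector kinase gene Rock2, at 20.7 and 14.1 FPKM, and Iqgap3, at 21.5 and 17.7 FPKM. Chmp4b, Sept2 and Cdca3, the other leading genes of that list by level, did not pass (log2 differences -0.16, -0.05 and 0.02). Anln, the member that was lower, is known to bind active RhoA, but a link between its level and those of these genes was not tested. Among 41 further kinetochore and centromere genes, 7 (17.1%) were higher and 3 (7.32%) lower (Zwint, Dsn1 and Pmf1), with a median of 0.05. Both shares were under those of all genes tested. Zwint, a partner of the outer kinetochore, was at 70.6, 66.5 and 62.5 FPKM across WT and 41.0, 39.8 and 42.4 FPKM across mutant libraries, and fell by 0.68 (SE 0.0643, limma adjusted p = 0.000142), opposite to Cenpf, Cenpe and Bub1. Pmf1 fell by 0.34 (limma adjusted p = 0.0252), and Bub3 and Mad1l1, also among the 4 highest in level, did not pass (0.07 and 0.10). Of 19 further mitotic entry genes, 5 (26.3%) were higher (Cdc25a, Arpp19, Bora, Nek2 and Ccnf) and 5 (26.3%) lower (Pkmyt1, Cks1b, Ensa, Plk2 and Lats2), with a median of -0.04. Of its 4 genes with the highest level, Cks1b, a small subunit of cyclin-dependent kinases, fell by 0.43 (limma adjusted p = 0.00719) and Ensa, an inhibitor of a phosphatase that opposes Cdk1, by 0.21 (0.0240), while Cks2 and Pbk did not pass (0.04 and -0.04).

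APC/C subunits and regulators other than the members gave 4 higher (Anapc1, Anapc4, Cdc23 and Espl1) and 5 lower (Anapc5, Anapc7, Anapc16, Ube2s and Pttg1ip) of 19, with a median of -0.03. In shares, 21.1% were higher and 26.3% lower, against 23.2% and 22.8% of all genes tested. Ube2s, which extends the chains that Ube2c starts, was at 326, 327 and 287 FPKM across WT and 225, 227 and 278 FPKM across mutant libraries, and fell by 0.37 (limma adjusted p = 0.0214), with mutant replicate 3 just below the WT range. The subunit gene Anapc5 fell by 0.25 (limma adjusted p = 0.0277), and Anapc13 and Cdc26 did not pass (-0.21 and -0.09). Of 22 condensin, cohesin and chromosome structure genes, 2 (9.09%) were higher (Pds5a and Top2b) and 5 (22.7%) lower (Ncapd3, Ncapg, Ncapg2, Stag1 and Stag2), with a median of 0.01. The 4 highest in level, H2afz, Hmgb2, Rad21 and Ncapd2, did not pass (0.01, -0.0069, -0.12 and -0.11). Of 15 genes of the MuvB and DREAM complexes and NF-Y, through which CHR and CCAAT elements act, 3 (20%) were higher (Rbl2, E2f4 and Nfyb) and 2 (13.3%) lower (Lin37 and Tfdp2), with a median of -0.07. E2f4 was at 31.4, 31.7 and 32.2 FPKM across WT and 40.1, 35.2 and 39.1 FPKM across mutant libraries (log2 difference 0.25, limma adjusted p = 0.0134). Rbbp4, Tfdp1 and Nfyc, the others of its 4 highest in level, did not pass (-0.20, 0.14 and -0.08).

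Genes of the earlier phases were counted for comparison. Of 61 genes of DNA replication and S phase, 6 were higher and 10 lower, with a median log2 difference of -0.07. The lower count was 16 without mutant replicate 3, when 22.9% of all genes tested were lower. It was 6 without WT replicate 1, WT replicate 2, mutant replicate 1 or mutant replicate 2. In those 4 fits between 1957 and 2052 of all genes tested were lower, against 2592 as reported. Pcna, the sliding clamp of DNA polymerases, was at 296, 294 and 255 FPKM across WT and 205, 229 and 255 FPKM across mutant libraries, and fell by 0.30 (limma adjusted p = 0.0450), with WT replicate 3 and mutant replicate 3 at nearly the same value. Mcm6, Uhrf1 and Rrm1, the next in level, did not pass (log2 differences of -0.07, -0.09 and 0.01). Of 18 G1 cyclin and CDK inhibitor genes tested, 4 were higher and 5 lower (median -0.05), with Rb1, Cdkn2b, Cdkn2c and Btg2 higher and Ccnd3, Cdk6, Cdkn1c, Trp53 and Btg1 lower. Of its 4 genes with the highest level, the antiproliferative gene Btg2 rose by 0.37 (limma adjusted p = 0.00255), the p53 gene Trp53 fell by 0.43 (0.00206), and the kinase gene Cdk4 (-0.07, 0.584) and the inhibitor gene Cdkn1a (-0.04, 0.660) did not pass. In shares, 9.84% of the S phase genes were higher and 16.4% lower, 22.2% and 27.8% of the G1 genes, and 50% and 2.78% of the members. The shares of all genes tested were 23.2% and 22.8%, so both shares of the S phase genes were under those of all genes. With each library scaled to the same total FPKM, 29 S phase genes were higher and 1 lower, and 8 G1 genes higher and 1 lower. Under that scaling 47.2% of all genes tested were higher and 7.4% lower. Library weights gave 30 S phase genes lower, and 3546 of the 11385 genes tested lower. The difference between the lists was not tested.

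**Figure D5:**
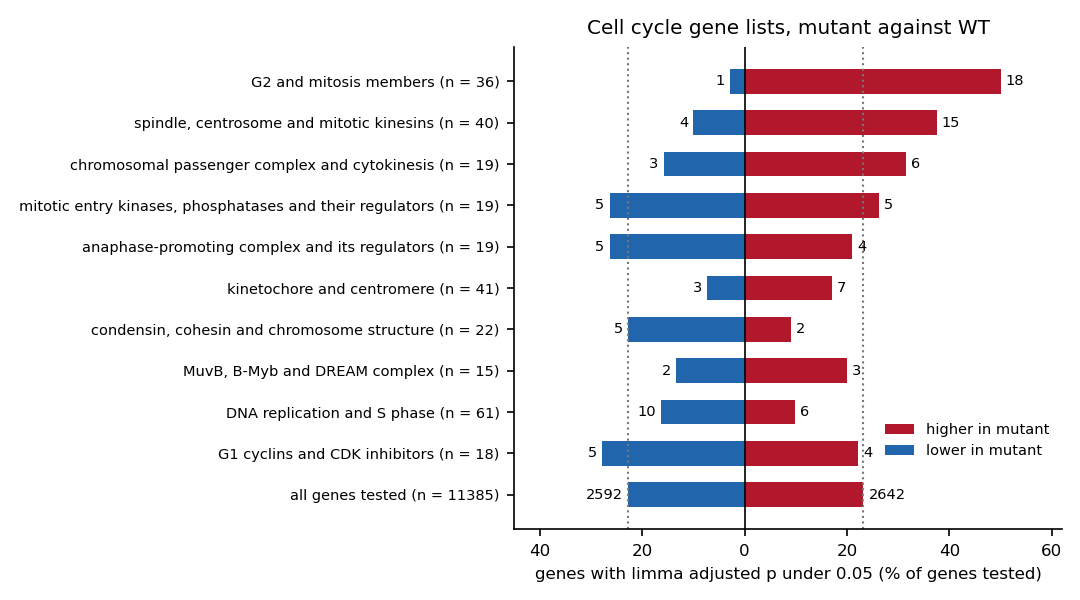
Share of each cell cycle list that was higher (red, to the right) or lower (blue, to the left) in mutant libraries, in percent of the genes tested, with the number of genes at each bar. Dotted lines mark the shares of all genes tested, 23.2% and 22.8%; the 36 members reach 50% on the right, while the DNA replication list reaches 9.84%.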

How the data were processed

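Values are the authors' FPKM per gene and library, deposited with an interval and a status, per the file headers. The submitters' processing notes name TopHat, Cufflinks and the build mm9, without versions, although the positions of 98.9% of 23315 symbols and of all 36 members fit GRCm38, as which they are read. Absolute depth is unknown without read totals, and the level of the intervals was not given in the sources used here. Testing used limma 3.58.1 in R 4.3.3 (empirical Bayes with a trend) on log2(FPKM + 1) for 11385 genes whose mean reached 1 FPKM. This scale understates changes of low genes. The fit was also run on simulated data with independent noise for each gene, which cannot show how it performs on these data. Ratios of members were compared by exact permutation. Python 3.11.15 made tables and figures. Of the 21 alternatives, 2 (trends in transcript length, and in length and GC content) were added after seeing the data. Members and lists were chosen with earlier results of these data known. Genes named are all members, the 4 with the highest level in each further list, Pik3ca and leading markers. Also named are called genes where 5 or fewer were called in a direction. Others named were chosen after their values were seen (Xist, overlapping genes, undetected markers, the higher genes of the passenger complex and cytokinesis list).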

Additional observations from a re-analysis of the deposited data

How the results depend on the processing

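The members' median log2 difference stayed above 0 under all 21 alternatives. Scaling to the same total FPKM, with all rows and then without genes under 200 bases, gave 34 and 35 members higher and 0 and 0 lower, with medians of 0.54 and 0.58. It gave 5375 and 6575 of all genes tested higher and 842 and 842 lower, 97 and 118 of the further mitosis genes higher and 3 and 3 lower, 29 and 37 S phase genes higher and 1 and 1 lower, and 8 and 12 G1 genes higher and 1 and 0 lower. These scalings turned Cdk1 to 0.21 and 0.25, Anln to 0.035 and 0.079 and Ect2 to 0.16 and 0.21. Library weights gave 3 members lower (Cdk1, Anln and Ect2), 42 further mitosis genes lower and 30 S phase genes lower, against 3546 of all genes tested. These weights turned Cdc20 to -0.012, Mad2l1 to -0.018, Birc5 to -0.10, Top2a to -0.00097, Nusap1 to -0.041 and Pttg1 to -0.11. Quantile normalization turned Ttk to -0.0067. S phase genes lower numbered 16 with the length trend removed, 17 with the length and GC trends removed and 6 with no filter on low values. All genes tested that were lower numbered 2902, 2997 and 2560 in the same order.

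Leaving out each library in turn gave 11 (without mutant replicate 2) to 18 members higher and 1 to 3 (without mutant replicate 3) lower. The members' medians were then 0.14 to 0.25. It also gave 20 to 37 further mitosis genes higher and 15 to 31 lower, and 6 to 16 S phase genes lower. Over all genes tested, 1922 to 2597 were higher and 1957 to 2610 lower, against 2642 and 2592 as reported. Log2 differences then ranged from -0.022 to 0.13 for Ccnb2, -0.020 to 0.14 for Cdc20, -0.051 to 0.16 for Cenpa, -0.0033 to 0.084 for Ttk, -0.067 to 0.13 for Birc5, -0.011 to 0.13 for Nusap1 and -0.11 to 0.12 for Pttg1. The cause of these changes was not tested.

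With the replicate number as a block, 12 members were higher and Anln lower: Cdc25b, Kif11, Kif20a, Kif23, Aurka and Mki67 were no longer past the threshold. The block gave 15 further mitosis genes, 5 S phase genes and 3 G1 genes lower. Over all genes tested it gave 1889 higher and 1909 lower, against 2642 and 2592 as reported, so counts fell for all genes too. Deviations of same-numbered libraries correlated at 0.127, 0.122 and -0.0073 over the genes tested, and the labels tie no number to an animal, so the numbers were not taken to pair the samples. Precision is limited by 3 libraries a group and an unknown depth: the deposited intervals of WT and mutant libraries overlapped for all 36 members.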
